A study of Saccharomyces cerevisiae with 12 samples.

Results

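The genes described here make and use serine, glycine and folate-bound one-carbon units in budding yeast. They are 10 of the 6660 features in the count table, and all 10 were among the 6195 genes with enough counts to be tested. The list is a set of gene identifiers with no threshold on a value. It was chosen by gene function and on strain differences already known from these same 12 libraries, that is, on the fold changes and levels given below, so counts and differences of the 10 genes are given as descriptions and no p-value is printed for them.

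Poly-A RNA was sequenced from 3 diploid strains of the BY4743 background, with 4 libraries each. The strains were atg41, which lacks ATG41 (also called ICY2), atg1, which lacks ATG1, and the wild type (WT). In autophagy, cells enclose cytoplasm in vesicles and degrade it in the vacuole. ATG1 encodes the protein kinase needed to begin it, and ATG41 encodes a protein needed for its normal rate. All 3 strains were grown with ample zinc and then held for 8 h at 30 °C in zinc-limiting medium, so no zinc-replete library enters any comparison. The design asks which transcripts depend on either gene in zinc-deficient cells. Whether replicates were separate cultures is not stated, so p-values set strain differences only against the spread between these libraries, which may be technical.

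Serine is made from the glycolytic intermediate 3-phosphoglycerate by a dehydrogenase, an aminotransferase and a phosphatase in turn. Serine hydroxymethyltransferase moves a carbon from serine to tetrahydrofolate and leaves glycine, and this carbon then feeds the synthesis of purines, thymidylate and methionine. Yeast can also cleave threonine to glycine, break glycine down to release the same one-carbon unit, and deaminate serine to pyruvate when serine is in excess. Serine also gives the carbon skeleton of cysteine, which ties it to sulfur assimilation.

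The libraries held 9623157 to 11247182 expected counts each, and the 10 genes had from 442 to 43697 counts in any library. Levels of one gene across libraries are given in CPM, counts scaled by library total and normalization factor. Levels of different genes are compared, and those of isozyme pairs summed, in the authors' TPM, which also account for gene length. No normalization factor was applied to the TPM, so a small strain difference can have another direction in TPM than in CPM. SHM2, for example, averaged 3030 CPM in atg1 and 2872 CPM in WT, but 1938 TPM in atg1 and 1955 TPM in WT. ATG1 had 0 counts in all 4 atg1 libraries. In the atg41 libraries ATG41 had a single count in replicate 1 and none elsewhere. ZRT1, the high-affinity zinc transporter induced by zinc deficiency, was at 7850 to 8929 CPM in atg41, 14828 to 15825 CPM in atg1 and 13744 to 15174 CPM in WT. It was thus lower in atg41 than in WT, with a log2 fold change of -0.81 ± 0.06. ZAP1, the gene of the zinc-responsive activator, did not pass in atg41 against WT (0.03 ± 0.07). Whether zinc status differed between the strains was not tested. The 12 a-specific, alpha-specific and haploid-specific genes that diploids repress summed to 147.0 to 149.7 CPM in atg41, 148.0 to 177.3 CPM in atg1 and 164.7 to 172.2 CPM in WT, with SAG1 the highest of the 12 at 71.2 to 96.7 CPM over all libraries, STE5 next at 13.6 to 37.3 CPM, and MFA1 and MFA2 below 1 CPM in every library. One library, atg1 replicate 1, differed most from its replicates. The median absolute difference in log2 CPM between it and the other atg1 libraries was 0.168 to 0.207, against 0.0713 to 0.133 for the other 15 pairs of replicates.

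The regions before the start codon of the 5 genes with the largest changes in atg41 are shown first, so that the letters can be read beside the values. Each window holds 200 bases of the RefSeq R64 assembly, begins 300 bases before the start codon, and is read 5′ to 3′ on the strand of the gene. The assembly may not be the one the authors counted on. Capitals mark TGACTC, the core bound by Gcn4 and Bas1, CACGTG, the site bound by Cbf1, and CTGTGG, the core bound by Met31 and Met32, searched on both strands. The first 3 sequences belong to genes that rose in atg41 and the last 2 to genes that fell. SER33 is shown at chrIX:222591-222790 (minus strand), ADE3 at chrVII:905634-905833 (plus), SER1 at chrXV:679057-679256 (plus), SER3 at chrV:322386-322585 (plus) and CHA1 at chrIII:16981-17180 (minus).
SER33: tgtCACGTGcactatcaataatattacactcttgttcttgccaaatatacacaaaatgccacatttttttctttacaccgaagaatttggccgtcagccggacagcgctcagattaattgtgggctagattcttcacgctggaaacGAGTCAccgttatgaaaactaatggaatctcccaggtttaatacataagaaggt
ADE3: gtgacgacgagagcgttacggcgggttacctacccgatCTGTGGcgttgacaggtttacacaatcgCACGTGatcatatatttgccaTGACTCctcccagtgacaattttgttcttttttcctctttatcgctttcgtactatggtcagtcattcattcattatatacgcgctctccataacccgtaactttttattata
SER1: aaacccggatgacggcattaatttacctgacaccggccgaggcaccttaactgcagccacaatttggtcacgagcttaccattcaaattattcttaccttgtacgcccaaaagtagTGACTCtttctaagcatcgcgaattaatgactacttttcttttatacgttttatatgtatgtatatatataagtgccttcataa
SER3: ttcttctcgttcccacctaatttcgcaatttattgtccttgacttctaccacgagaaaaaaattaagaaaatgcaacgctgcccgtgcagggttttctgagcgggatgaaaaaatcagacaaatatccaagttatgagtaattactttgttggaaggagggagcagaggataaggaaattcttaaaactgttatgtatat
CHA1: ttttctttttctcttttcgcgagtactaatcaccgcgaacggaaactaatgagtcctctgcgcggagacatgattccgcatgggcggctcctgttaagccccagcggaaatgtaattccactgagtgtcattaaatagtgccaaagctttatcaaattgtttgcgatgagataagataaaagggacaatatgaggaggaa

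TGACTC was found in the windows of 5 of the 10 genes, SER33, SER1, SER2, SHM2 and ADE3, and in 5.84% of the 6007 windows of the same length before protein-coding genes. CACGTG was found before SER33 and ADE3, the genes with the largest rises in atg41, and in 3.01% of all windows. CTGTGG was found before SHM1 and ADE3 and in 4.98% of all windows. SER2 carried TGACTC and did not pass the test in atg41, and SER3, CHA1, CHA4 and GLY1 had none of the 3 motifs in this window. No match overlapped another. The motifs were chosen after the expression values were seen, and a match is a description of the letters only.

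Transcript levels of most of the 10 genes differed between atg41 and WT. SER33 rose and its isozyme gene SER3 fell, CHA1, which encodes the serine deaminase, fell by 3.33 on the log2 scale, and SER1, ADE3, SHM2 and SHM1 rose. In all, 5 of the 10 genes rose and 3 fell in atg41 against WT at an adjusted p under 0.05 (edgeR quasi-likelihood test), where 29.9% of all genes tested rose and 35.9% fell. With libraries scaled to equal totals the 10 genes again gave 5 higher and 3 lower, where 20.2% of all genes were higher and 45.5% lower. SER2 and CHA4 did not pass. The median log2 fold change of the 10 genes was 0.23, against -0.04 over all genes. With so many genes changed in this strain and the list chosen with these results known, nothing is read from the count. In mixed RNA of a culture, a change in every cell and a change in the share of cells in one state cannot be told apart.

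**Figure D1:**
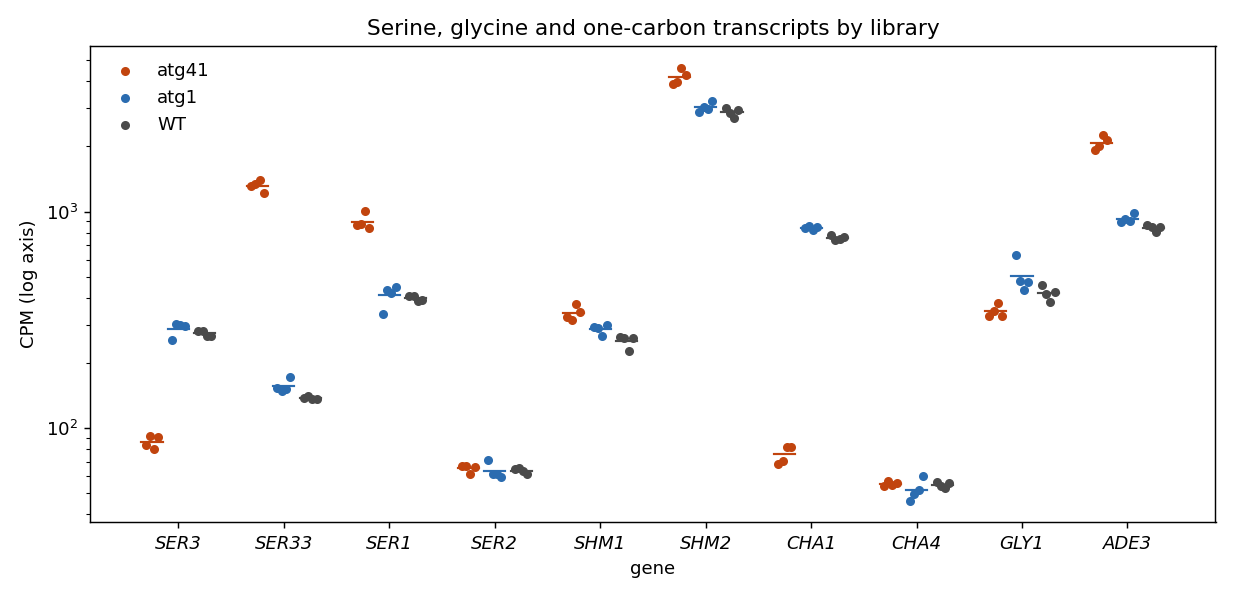
CPM of each of the 10 genes (log axis) in the 4 libraries of atg41, atg1 and WT, with points for libraries and bars for means. The atg41 libraries of SER33 lie near 1317 CPM, far above the others, while those of CHA1 lie near 75.7 CPM, far below them, and SER2 and CHA4 show no separation.

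The first enzyme of serine synthesis, 3-phosphoglycerate dehydrogenase, has 2 isozymes, encoded by SER3 and SER33. SER33 (YIL074C, chromosome IX, 221081 to 222490, minus strand) had 1315, 1337, 1394 and 1221 CPM in atg41, 153, 148, 152 and 172 CPM in atg1, and 138, 141, 137 and 136 CPM in WT. Every atg41 library was far above every library of the other strains. The log2 fold change was 3.25 ± 0.07 (SE, n = 4 each), a 9.53-fold rise. SER3 (YER081W, chromosome V, 322686 to 324095, plus strand) had 83.9, 91.5, 80.4 and 90.6 CPM in atg41, 256, 304, 298 and 295 CPM in atg1, and 282, 282, 267 and 266 CPM in WT. It fell in atg41 against WT by 1.66 ± 0.06 on the log2 scale. The atg41 libraries did not overlap those of the other strains, while atg1 and WT overlapped.

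The more abundant transcript of this step was SER33 in atg41 and SER3 in atg1 and WT. SER33 made up 93.8% ± 0.617 of their summed TPM in atg41, 35.2% ± 2.22 in atg1 and 33.5% ± 0.508 in WT (SD, n = 4). The sum itself was 955 ± 32.4 TPM in atg41, 284 ± 31.7 TPM in atg1 and 281 ± 7.65 TPM in WT. The coding sequences are 82.6% identical, and the longest run of bases they share is 56, so none of the 1311 stretches of 100 bases in SER33, the read length, occurs in SER3. Reads with fewer matched bases or with errors can still be split between them. The noncoding RNA SRG1, whose transcription across the SER3 promoter is known to repress SER3, spans 322212 to 322762 on the same strand and shares 77 bases with SER3, and reads from those bases could be counted to SER3. The count table held no entry for SRG1, so its own level could not be read.

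**Figure D2:**
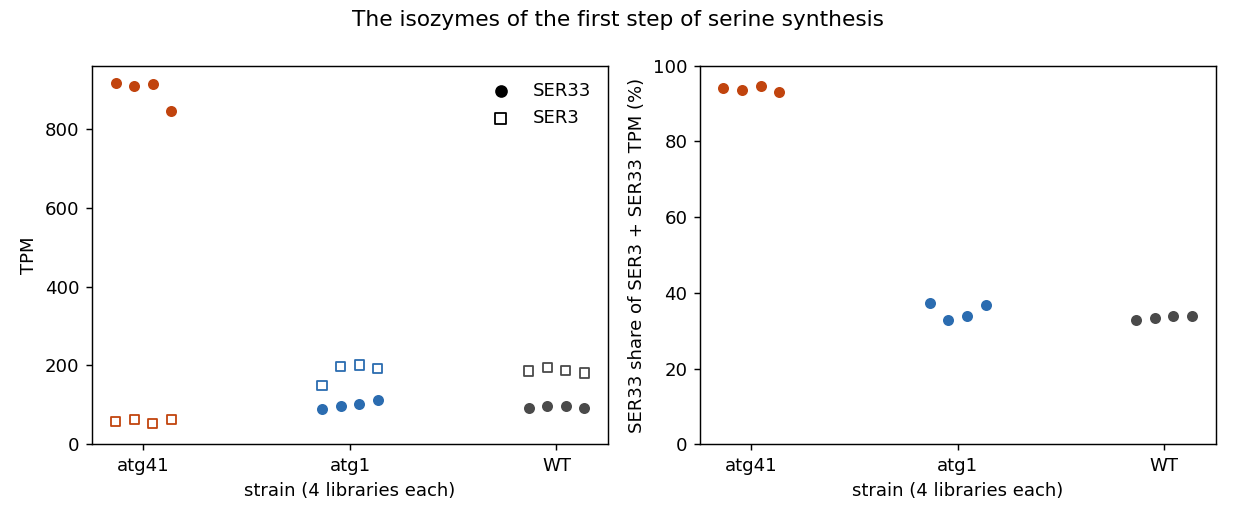
Left, TPM of SER33 (filled circles) and SER3 (open squares) in each library; right, the share of SER33 in the summed TPM of both, in percent. SER33 holds 93.1% to 94.5% of the sum in the atg41 libraries and 32.8% to 37.4% in the atg1 and WT libraries.

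SER1, the phosphoserine aminotransferase (YOR184W, chromosome XV, 679357 to 680544, plus strand), had 865, 874, 1003 and 843 CPM in atg41, 335, 436, 420 and 449 CPM in atg1, and 407, 409, 388 and 389 CPM in WT. It rose 2.25-fold in atg41, a log2 fold change of 1.17 ± 0.09, and the atg41 libraries stood clear of all others. SER2, the phosphoserine phosphatase of the last step (YGR208W, chromosome VII, 911883 to 912812, plus strand), had 67.0, 66.5, 61.2 and 66.0 CPM in atg41, 71.5, 61.1, 61.5 and 59.2 CPM in atg1, and 64.8, 65.2, 63.4 and 61.2 CPM in WT. The 3 strains overlapped for SER2, with log2 fold changes of 0.03 ± 0.06 in atg41 and -0.01 ± 0.06 in atg1 against WT.

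Serine hydroxymethyltransferase is encoded by SHM2 for the cytosol and by SHM1 for the mitochondrion. SHM2 (YLR058C, chromosome XII, 257992 to 259401, minus strand) had 3891, 3984, 4622 and 4282 CPM in atg41, 2868, 3050, 2965 and 3238 CPM in atg1, and 2994, 2859, 2705 and 2930 CPM in WT. It rose 1.46-fold in atg41 (0.55 ± 0.07). SHM1 (YBR263W, chromosome II, 736264 to 737736, plus strand) had 326, 315, 373 and 342 CPM in atg41, 292, 290, 267 and 298 CPM in atg1, and 263, 260, 227 and 260 CPM in WT, and it rose by less (0.43 ± 0.07). For both genes the atg41 libraries lay above the WT libraries without overlap. The share of SHM2 in the summed TPM of the pair was 92.8% ± 0.170 in atg41, 91.7% ± 0.407 in atg1 and 92.3% ± 0.231 in WT (SD, n = 4), so both members of this pair kept similar proportions in the 3 strains, from 91.2% to 93.0% over all libraries.

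ADE3, the cytosolic C1-tetrahydrofolate synthase that interconverts the folate-bound one-carbon units (YGR204W, chromosome VII, 905934 to 908774, plus strand), had 1926, 2005, 2250 and 2139 CPM in atg41, 899, 929, 902 and 981 CPM in atg1, and 869, 845, 802 and 847 CPM in WT. It rose 2.47-fold in atg41 (1.31 ± 0.06). Its mitochondrial counterpart MIS1 had 122 ± 7.17 CPM in atg41 and 110 ± 6.97 CPM in WT (SD, n = 4) and did not pass (log2 fold change 0.14 ± 0.13, edgeR adjusted p = 0.344). The share of ADE3 in the summed TPM of these genes was 94.6% ± 0.0548 in atg41, 87.8% ± 2.78 in atg1 and 88.7% ± 0.458 in WT, where atg1 replicate 1 was at 83.8% and the other atg1 libraries at 88.2% to 89.7%.

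GLY1, the threonine aldolase that makes glycine from threonine (YEL046C, chromosome V, 67629 to 68792, minus strand), had 329, 346, 378 and 330 CPM in atg41, 629, 477, 434 and 471 CPM in atg1, and 459, 417, 382 and 425 CPM in WT. The highest atg41 library lay just below the lowest WT library. The fall was 0.28 ± 0.10 on the log2 scale, the smallest called change among the 10 genes, and the call was lost without atg41 replicate 1 (-0.26), without atg41 replicate 4 (-0.26) or without WT replicate 1 (-0.25).

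CHA1, the serine and threonine deaminase that lets yeast use these amino acids as a nitrogen source (YCL064C, chromosome III, 15798 to 16880, minus strand), had 67.9, 70.6, 82.1 and 82.2 CPM in atg41, 843, 859, 822 and 848 CPM in atg1, and 783, 739, 746 and 767 CPM in WT. Its level in atg41 was 0.0998 of that in WT, a log2 fold change of -3.33 ± 0.07, and no atg41 library came near the other strains. CHA4, the zinc cluster activator of CHA1 (YLR098C, chromosome XII, 337527 to 339473, minus strand), had 53.8, 57.1, 54.8 and 55.5 CPM in atg41, 46.3, 49.4, 51.6 and 60.4 CPM in atg1, and 56.6, 53.8, 52.7 and 55.9 CPM in WT. The strains overlapped for CHA4, and its log2 fold change in atg41 was 0.01 ± 0.07. Transcript levels of CHA4 do not measure the activity of its protein.

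Ordered by TPM, SHM2 was the most abundant of the 10 in every strain, with 2852 ± 165 TPM in atg41, 1938 ± 188 TPM in atg1 and 1955 ± 40.6 TPM in WT (SD, n = 4). The next place was held by SER33 in atg41 (896 ± 34.7 TPM) and by CHA1 in atg1 (717 ± 42.7 TPM) and WT (689 ± 8.84 TPM). CHA1 was at 68.6 ± 6.07 TPM in atg41, where its libraries overlapped those of SER2 (70.1 ± 4.64 TPM). In atg41, SER1 (733 ± 39.5 TPM) also overlapped its lower neighbour ADE3 (676 ± 34.1 TPM). In WT, GLY1 (352 ± 17.7 TPM) overlapped SER1 (327 ± 8.71 TPM), and in atg1 SER1 overlapped ADE3 and SER3 overlapped SHM1. CHA4 was the least abundant in every strain, at 26.7 ± 0.924 TPM in atg41, 23.6 ± 3.67 TPM in atg1 and 26.4 ± 0.340 TPM in WT.

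In atg1 against WT none of the 10 genes passed the test in edgeR, where 0.387% of all genes rose and 3.34% fell. At an unadjusted p under 0.05 there were 5, all higher, where 8.68% of all genes were higher and 12.5% lower. DESeq2 called 2, SER33 and CHA1, both higher. Of the 5474 genes to which DESeq2 gave an adjusted p, it called 2.45% higher and 4.79% lower. SER33 was at 0.18 ± 0.06 and CHA1 at 0.15 ± 0.06 on the log2 scale in edgeR. In CPM, all 4 atg1 libraries lay above all 4 WT libraries for both genes. SHM1 (0.18 ± 0.07) and ADE3 (0.14 ± 0.06) also had no overlap in CPM between these strains. Over all genes tested, the atg1 libraries lay above the WT libraries in CPM without overlap for 4.70% and below them for 9.09%. In TPM these strains overlapped for SER33, CHA1, SHM1 and ADE3. For SER33 the range was 88.7 to 112 TPM in atg1 and 91.0 to 96.9 TPM in WT. With libraries scaled to equal totals SER33 was at 0.10, CHA1 at 0.07 and SHM1 at 0.10. GLY1 had the largest value, 0.26 ± 0.10, and it was 0.13 without atg1 replicate 1, which held the highest GLY1 level. SER1 was at 0.04 ± 0.09 and at 0.13 without that library. The log2 fold changes of the 10 ran from -0.07 to 0.26, with a median of 0.11 against -0.01 over all genes.

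The strain difference itself was read in atg41 against atg1, which shares the atg41 libraries with the first comparison. There 5 of the 10 genes were higher and 3 lower, where 31.0% of all genes were higher and 33.0% lower. SER33 was at 3.08 ± 0.07, SER1 at 1.13 ± 0.09, ADE3 at 1.16 ± 0.06, SHM2 at 0.47 ± 0.07 and SHM1 at 0.24 ± 0.07 on the log2 scale. CHA1 was at -3.48 ± 0.07, SER3 at -1.73 ± 0.06 and GLY1 at -0.54 ± 0.10, and GLY1 was at -0.42 without atg1 replicate 1. SER2 (0.04 ± 0.06) and CHA4 (0.09 ± 0.07) did not pass.

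**Figure D3:**
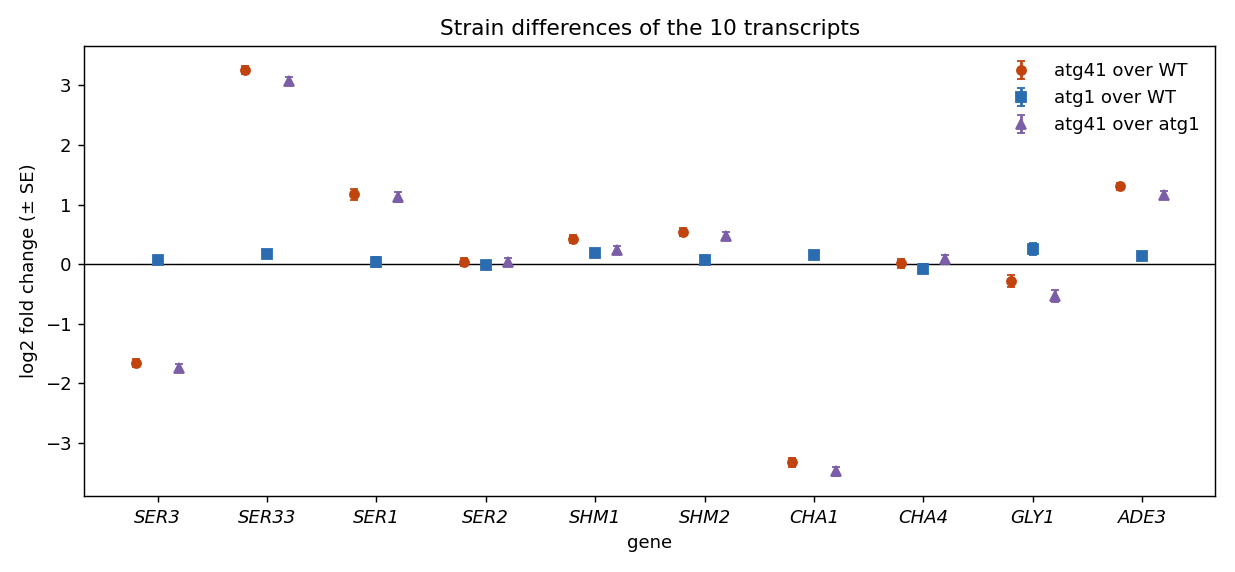
Log2 fold change with its standard error for each of the 10 genes in atg41 over WT, atg1 over WT and atg41 over atg1. The atg41 over WT values run from -3.33 for CHA1 to 3.25 for SER33, while the atg1 over WT values all lie between -0.07 and 0.26.

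A list of 40 other genes of the pathway, its branches, its transport and its regulators was read alongside, and all 40 were tested. This list too was chosen with earlier results of these data known, so the p-values printed for its genes are descriptions. In atg41 against WT 19 of them rose and 13 fell in edgeR, where 29.9% of all genes rose and 35.9% fell, and their median log2 fold change was 0.14. With libraries scaled to equal totals the balance turned, to 12 higher and 17 lower, where 20.2% of all genes were higher and 45.5% lower. The counts by role below can be read against the same shares of all genes. In atg41 against atg1 14 rose and 15 fell, where 31.0% of all genes were higher and 33.0% lower, and the median was 0.06. In atg1 against WT edgeR called 0 of the 40, with a median of 0.09. At an unadjusted p under 0.05 there were 11, all higher, where 8.68% of all genes were higher and 12.5% lower. DESeq2 called 4 higher there, THR4, ADE8, CHO1 and ADE16, where it called 2.45% of its 5474 genes with an adjusted p higher and 4.79% lower.

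The uptake genes moved furthest. DIP5, GNP1 and AGP1, plasma membrane permeases that take up serine among other amino acids, all fell in atg41. DIP5 had 51.3, 49.2, 50.2 and 48.7 CPM in atg41, against 319, 324, 322 and 324 CPM in WT, and fell by 2.69 ± 0.07 on the log2 scale (adjusted p = 3.88e-13 in edgeR). GNP1 fell by 2.56 ± 0.09 (1.95e-11), and AGP1 fell by 2.14 ± 0.07 (6.38e-12). In atg1 against WT the 3 genes were at 0.07 to 0.12 without passing.

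Glycine cleavage, which breaks glycine down to carbon dioxide, ammonia and a folate-bound one-carbon unit, was split. Its subunit genes GCV1 (-0.41 ± 0.07, edgeR adjusted p = 1.43e-04), GCV2 (-0.34 ± 0.07, 4.53e-04) and GCV3 (-0.38 ± 0.05, 2.37e-05) fell together in atg41. LPD1, whose dihydrolipoamide dehydrogenase also serves pyruvate and 2-oxoglutarate dehydrogenase, rose by 0.60 ± 0.05 (2.38e-07). Among the enzymes of folate-bound one-carbon units 3 of 8 rose and 2 fell, where 29.9% of all genes rose and 35.9% fell, and MET12, one of the 3, did not pass at equal totals. MTD1, an NAD-dependent methylenetetrahydrofolate dehydrogenase of the cytosol, had 73.2, 73.7, 63.8 and 78.3 CPM in atg41, against 185, 186, 181 and 178 CPM in WT, and fell by 1.34 ± 0.07 (edgeR adjusted p = 1.73e-09). MTD1 and ADE3, which share a reaction between folate forms, thus changed in opposite directions. FMT1, which formylates the initiator methionyl-tRNA of mitochondria, rose by 0.59 ± 0.12 (6.20e-04) from a low level.

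Users of serine, glycine and one-carbon units included MET6, the gene of the list with the largest rise. MET6, the methionine synthase that takes the methyl group of methyltetrahydrofolate, had 1648, 1686, 1845 and 1706 CPM in atg41, against 555, 534, 536 and 557 CPM in WT, and rose by 1.66 ± 0.06 (edgeR adjusted p = 9.12e-12). CYS4, cystathionine beta-synthase, which condenses serine with homocysteine, rose by 1.42 ± 0.06 (1.85e-10). In this group 6 of 9 rose and 3 fell, against 29.9% and 35.9% of all genes, and ADE8, one of the 6, did not pass at equal totals. Those that fell were ADE17 (-0.37 ± 0.09, 0.00208), CHO1 (-0.43 ± 0.06, 1.50e-05) and LCB2 (-0.56 ± 0.09, 1.32e-04), in edgeR. ADE17 shares the last steps of purine synthesis with its isozyme gene ADE16, which rose (0.43 ± 0.06, 1.07e-05). LCB2 and LCB1 encode the subunits of serine palmitoyltransferase, which starts sphingolipid synthesis from serine, and LCB1 rose by 0.30 ± 0.09 (0.0133), a call lost with libraries scaled to equal totals. CHO1, phosphatidylserine synthase, joins serine to a phospholipid precursor. On the route to threonine, the substrate of GLY1, HOM6 (1.62 ± 0.06, 5.19e-11), homoserine dehydrogenase, and HOM3 (1.08 ± 0.09, 1.02e-07), aspartate kinase, rose, and 5 of the 7 genes of the threonine and glyoxylate routes rose while none fell, against 29.9% and 35.9% of all genes. THR4, one of the 5, did not pass at equal totals. HOM3 and HOM6 also supply homoserine to methionine synthesis.

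Of the 6 folate synthesis genes 3 rose, where 29.9% of all genes did, with FOL1 at 0.63 ± 0.06 (edgeR adjusted p = 5.70e-07) and FOL3 at 0.27 ± 0.05 (5.01e-04). The third, MET7, was at 0.14, and FOL3 and MET7 did not pass with libraries scaled to equal totals. MET7 also lost its call with replicate number as a block and without atg41 replicate 3 or 4 or any 1 WT library. Among the 3 regulators, BAS1, the Myb activator of purine and one-carbon genes, had 37.6, 32.4, 37.0 and 37.6 CPM in atg41, against 65.0, 67.6, 70.0 and 63.4 CPM in WT, and fell by 0.88 ± 0.07 (edgeR adjusted p = 8.14e-08). GCN4, the activator of amino acid synthesis genes, was at -0.20 ± 0.08 (0.0409), a call lost without atg41 replicate 1, 2 or 4, without WT replicate 2 or 3, with DESeq2 size factors, with the replicate block and in DESeq2. PHO2, the partner of BAS1, was at 0.12 ± 0.05 (0.0422) and lost its call without atg41 replicate 1, 3 or 4, without atg1 replicate 2 or 3, without any 1 WT library, with the replicate block and at equal totals. GCN4 is controlled mainly through translation, which these values do not measure.

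**Figure D4:**
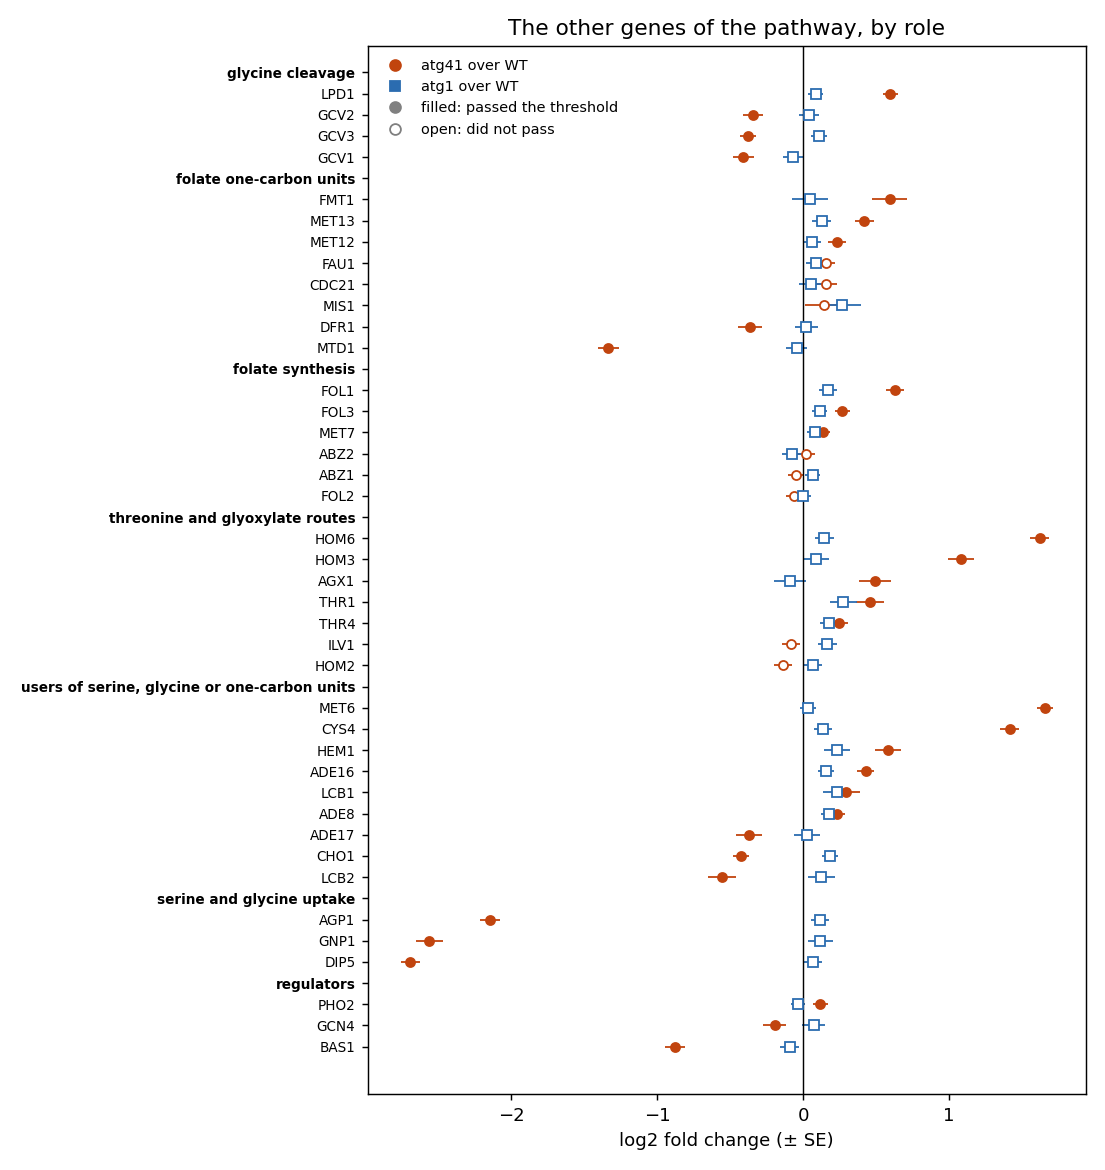
Log2 fold change with its standard error for the 40 other genes, grouped by role, in atg41 over WT (circles) and atg1 over WT (squares), filled where the threshold was passed. The atg41 values run from -2.69 for DIP5 to 1.66 for MET6, and no atg1 square is filled.

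The genes next to 3 of the 10 on the chromosome were read as well. CHA1 and VAC17, a vacuole inheritance gene, are transcribed away from each other across a gap of 409 bases (chromosome III, 16881 to 17289), part of which is printed above. VAC17 had 13.8, 15.3, 14.9 and 17.0 CPM in atg41, 57.3, 53.6, 47.4 and 46.0 CPM in atg1, and 55.0, 52.0, 54.8 and 54.9 CPM in WT. In atg41 VAC17 fell by 1.83 ± 0.08 in log2 terms (adjusted p = 2.17e-10 in edgeR), in the same direction as CHA1. Over all genes tested 35.9% fell in atg41 against WT, and the falls of neighbouring genes can be read against that share. Whether CHA1 and VAC17 share any control was not tested. On the other side of CHA1, HMLALPHA1 was at 0 to 0.805 CPM over all libraries and had too few counts to be tested. Beside SER3, AIM9 did not pass in atg41 (-0.02 ± 0.05, edgeR adjusted p = 0.690) and UTP7, which overlaps no part of SER3, fell by 0.43 ± 0.09 (0.00107). Beside SHM2, which rose, MNL2 (-0.44 ± 0.08, 2.84e-04) and REX2 (-0.50 ± 0.07, 1.59e-05) fell.

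The genes most like SER33 over the 12 libraries, by root mean square difference of mean-centred log2 CPM, were MMP1 (0.0952), an S-methylmethionine permease, MET5 (0.151), a sulfite reductase subunit, and MET2 (0.215), homoserine O-acetyltransferase. Their log2 fold changes in atg41 against WT were 3.17 ± 0.11, 3.51 ± 0.06 and 2.84 ± 0.11. The genes most like CHA1 were YRO2 (0.336), DIP5 (0.342) and GNP1 (0.388), with log2 fold changes of -2.73 ± 0.05 for YRO2 and, as above, -2.69 for DIP5 and -2.56 for GNP1. These were picked for their likeness, so their values are descriptions.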

How the data were processed

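RNA of 12 libraries, 4 per strain, was extracted with hot phenol and sequenced single-end for 100 bases from poly-A libraries whose kit does not mark strand, per the labels' protocols. The values used are the expected counts and the TPM of each gene that the authors deposited in the table of the whole series, per the file headers. BWA, STAR, RSEM and edgeR are named in the submitters' processing notes with no role. No version of them and no genome build is given in the sources used here. A further 12 per-sample columns were not used. Column names call the atg41 strain icy2, and ICY2 is a synonym of ATG41 in the RefSeq gene table.

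Of the expected counts, 18.4% were not whole, and all were rounded. Genes were kept by edgeR's filterByExpr with a minimum count of 10 and a minimum total of 15, which left 6195. Libraries were scaled by TMM, and 1 quasi-likelihood model of strain was fitted to all 12 libraries (edgeR 4.0.16, R 4.3.3) with Benjamini-Hochberg adjustment over all genes tested and a threshold of 0.05. The standard error is the log2 fold change divided by the square root of F, in absolute value. Library totals of 9623157 to 11247182 limit the precision of weakly expressed genes, and the common coefficient of variation between replicates was 9.37%. Alternatives were DESeq2 1.42.0, DESeq2 size factors, equal totals, no filter, only the strains compared, a replicate block, and each library left out.

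The 10 genes, the 40 other pathway genes and the tests were chosen with earlier results of these data known. Of the 40, the text names the 2 with the largest change per role in atg41 against WT and any called in atg1 against WT, and the others it names were chosen after their values were seen. Neighbouring genes were those next to SER3, SHM2 and CHA1. Motifs were searched on both strands of windows before coding sequences.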

Additional observations from a re-analysis of the deposited data

Results flagged for a closer look

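In each strain the CPM of each of the 10 genes was examined for a library far from its replicates, by the gap between the extreme library and its nearest neighbour divided by the range of the group. Of 30 groups, 2 passed Dixon's 95% critical value for 4 samples, and chance flags about 1 in 20 groups. SER2 in atg41 replicate 3, at 61.2 CPM, had a ratio of 0.830, with the other atg41 libraries at 66.0 to 67.0 CPM. SHM1 in WT replicate 3, at 227 CPM, had a ratio of 0.904, with the other WT libraries at 260 to 263 CPM.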

How the results depend on the processing

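In atg41 against WT 8 of the 10 genes passed under every alternative except the 3 that lost GLY1, which left 7 without atg41 replicate 1, atg41 replicate 4 or WT replicate 1. The same alternatives gave 3817 to 4363 calls over all genes, against 4081 in the main fit. In atg41 against atg1 the count was 8, and 9 without atg1 replicate 4, where CHA4 passed at 0.17. For that comparison the alternatives gave 3686 to 4049 calls over all genes, against 3961 in the main fit. In atg1 against WT none passed in edgeR under any alternative run, and DESeq2 called 2 of the 10 (SER33 at 0.20 and CHA1 at 0.17) and 4 of the other 40. Leaving out 1 library gave 0 to 2 of the 40 in that comparison, with 2, HEM1 and ADE8, without atg1 replicate 3. Over all genes the same leave-outs gave 53 to 457 calls, against 231.

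Libraries scaled to equal totals put the median of all genes at -0.17 in atg41 against WT and at -0.09 in atg1 against WT. Values near 0 turned negative there without passing: SER2 (-0.10) and CHA4 (-0.12) in atg41, and SER1 (-0.03), SER3 (-0.01) and SHM2 (-0.00) in atg1. SER33 in atg41 against WT ran from 3.12 to 3.29 over the alternatives, CHA1 from -3.46 to -3.28 and SER3 from -1.80 to -1.63.

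Replicate numbers did not pair the libraries: the deviations of same-numbered libraries correlated at -0.166 to 0.164, 2 of 12 pairs were over 0.1, and 4 of 24 correlated best with their own number. With a replicate block the 10 genes gave 8, 0 and 8 calls in atg41 against WT, atg1 against WT and atg41 against atg1. In the same order the 40 gave 29, 0 and 29, and all genes gave 4000, 209 and 3864. GCN4, PHO2 and MET7 lost their calls with the block in atg41 against WT. The 10 genes had at least 442 counts in every library.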
